A study of Mus musculus with 4 samples.

Results

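The nicotinic acetylcholine receptor subunit genes of sympathetic ganglia (SG) were examined: *Chrna3*, *Chrna4*, *Chrna5*, *Chrna7*, *Chrnb2* and *Chrnb4*. These 6 genes were taken by symbol from 17667 genes with reads in at least 1 of 4 RNA-seq libraries. The libraries were made from T1-T4 SG of C57BL/6 mice, 12 weeks old and all exposed to cold (5 °C) for 1 day, and each was 1 pool of ganglia from 6 mice of a group. WT_1 and WT_2 were 2 libraries of wild-type mice. The library labelled TRKC+/- came from mice haploinsufficient for TRKC, the receptor of neurotrophin 3 (NT-3), and the AdNTF3-Tg library came from mice carrying an NT-3 transgene under the adiponectin promoter, which is active in adipocytes. The study used littermate WT controls for each mutant, but the labels do not say which WT library belongs to which mutant. Each mutant library was therefore compared with the mean of both WT libraries on the log2 scale, and with each of them.

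Sympathetic neurons are driven by acetylcholine released from preganglionic axons onto nicotinic receptors, which are cation channels made of 5 subunits around a central pore. The receptor that carries most fast transmission in autonomic ganglia contains the α3 subunit (*Chrna3*) and the β4 subunit (*Chrnb4*), and some of these receptors also hold the accessory α5 subunit (*Chrna5*) or the β2 subunit (*Chrnb2*). The α7 subunit (*Chrna7*) forms channels from copies of itself that are highly permeable to calcium. The α4 subunit (*Chrna4*) pairs with β2 in the high-affinity nicotine receptors of the brain.

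*Chrna5*, *Chrna3* and *Chrnb4* form a gene cluster. In the mouse build NCBIM37, *Chrna5* lay on the plus strand at chr9:54828687-54855586, *Chrna3* on the minus strand at chr9:54859150-54874366 and *Chrnb4* on the minus strand at chr9:54875963-54896351, with 3563 and 1596 bases between neighbouring gene models in a cluster of 67665 bases. In the RefSeq table, on another build, the *Chrna5* and *Chrna3* models overlap at their ends. The other members lay apart on minus strands, *Chrna4* at chr2:180753085-180778251, *Chrnb2* at chr3:89557370-89568554 and *Chrna7* at chr7:70243578-70357455. The cluster promoters are known to be driven by Sp1 family factors, which bind GC-rich motifs. The windows of the 3 cluster genes are printed because their transcripts stood at very unequal levels from 1 locus, and that of *Chrna4* because its transcript was at the detection limit. Each runs 5′ to 3′ on the gene's strand, from 250 bases before to 50 bases after the RefSeq start (build GRCm38.p6), in lower case with matches to GGGCGG or to CCACCC on either strand in capitals. *Chrna3* is at chr9:55026513-55026812, the second start of *Chrna5* at chr9:54981238-54981537, *Chrnb4* at chr9:55048495-55048794 and *Chrna4* at chr2:181039128-181039427.
*Chrna3* promoter: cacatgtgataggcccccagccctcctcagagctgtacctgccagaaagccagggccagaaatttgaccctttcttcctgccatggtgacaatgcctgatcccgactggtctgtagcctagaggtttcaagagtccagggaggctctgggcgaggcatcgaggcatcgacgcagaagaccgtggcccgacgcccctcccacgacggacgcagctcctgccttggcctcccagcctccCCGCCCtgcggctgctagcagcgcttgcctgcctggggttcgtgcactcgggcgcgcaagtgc
*Chrna5* promoter, start 2: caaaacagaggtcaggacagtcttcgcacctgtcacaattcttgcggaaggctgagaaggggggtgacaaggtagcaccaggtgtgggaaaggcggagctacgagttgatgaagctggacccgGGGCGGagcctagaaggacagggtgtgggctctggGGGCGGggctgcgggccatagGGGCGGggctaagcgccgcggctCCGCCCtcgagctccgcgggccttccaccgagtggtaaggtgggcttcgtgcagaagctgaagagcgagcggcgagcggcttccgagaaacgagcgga
*Chrnb4* promoter: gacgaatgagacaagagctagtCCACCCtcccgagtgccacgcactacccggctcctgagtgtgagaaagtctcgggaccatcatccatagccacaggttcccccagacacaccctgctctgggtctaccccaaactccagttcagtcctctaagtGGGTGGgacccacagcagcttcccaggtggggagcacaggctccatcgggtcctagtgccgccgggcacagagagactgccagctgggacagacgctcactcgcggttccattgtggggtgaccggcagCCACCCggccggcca
*Chrna4* promoter: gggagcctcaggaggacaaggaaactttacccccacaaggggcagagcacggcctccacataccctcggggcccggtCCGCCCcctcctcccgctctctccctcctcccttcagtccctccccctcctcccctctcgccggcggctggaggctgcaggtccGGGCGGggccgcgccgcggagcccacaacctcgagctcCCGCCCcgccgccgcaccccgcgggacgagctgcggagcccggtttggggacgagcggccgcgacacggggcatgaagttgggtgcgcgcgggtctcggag

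The *Chrna3* window held 1 match to GGGCGG, the second start of *Chrna5* held 4 and *Chrna4* held 3. *Chrnb4* held none, and was the only one of the 7 member windows with CCACCC, at 3 places. The first start of *Chrna5*, at chr9:54980630-54980929, held neither motif and was the poorest in G and C, at 41.3% against 65% for the second start. Of all 32851 mouse promoter windows of the same length, 35.7% held GGGCGG and 31.5% held CCACCC, so a match is common. CANNTG, the E box motif, was found in 72.3% of all windows, 3 times in the *Chrna3* window and nowhere in that of *Chrna4*. The windows of *Chrna3*, *Chrnb4* and *Chrna4* had a G and C content of 64.3%, 63.0% and 74.3%, above the median of 52.7% over all windows. These matches describe letters only. The gene with almost no transcript, *Chrna4*, had 3 GGGCGG matches.

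Depth was nearly even, from 8665955 to 8894985 reads on genes per library, and 3 reads, taken as the detection floor, correspond to 0.337 to 0.346 CPM. Sympathetic identity was plain in all libraries: 10 marker genes, among them tyrosine hydroxylase (*Th*) at 2576 to 2753 FPKM (reads scaled to gene length and library size), summed to 9245 to 9906 FPKM, and *Pnmt*, which marks chromaffin cells, was listed in none. Glial markers summed to 620 to 810 FPKM. Skeletal muscle markers set the WT libraries apart, at 104.6 FPKM summed over 10 genes in WT_1, 48.2 in the library labelled TRKC+/-, 4.34 in WT_2 and 37.0 in AdNTF3-Tg. *Ucp1*, the uncoupling protein of brown fat, was at 47.3, 7.80, 48.1 and 37.8 FPKM in the same order. *Ntrk3*, which encodes TRKC, had 78 reads in WT_1, 91 in the library labelled TRKC+/-, 83 in WT_2 and 76 in AdNTF3-Tg, so it was not lower in that library (log2 ratio 0.13, 95% counting interval -0.23 to 0.53). A count over the whole gene does not show whether a transcript of a disrupted allele was counted. In a separate measurement, the paper reports reduced *Trkc* expression in SG of TRKC+/- mice against WT littermates. The NT-3 gene itself, *Ntf3*, had 2 reads in the library labelled TRKC+/- and was listed in none of the others.

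*Chrna3* was the most abundant subunit transcript in all 4 libraries. It stood at 208 FPKM in WT_1, 205 in the library labelled TRKC+/-, 207 in WT_2 and 214 in AdNTF3-Tg, from 5563, 5595, 5614 and 5768 reads. The values lay within 5% of each other, and *Chrna3* ranked between 326 and 363 among all genes of a library by FPKM. *Chrnb4*, the partner subunit of the ganglionic receptor, was at 68.8, 66.5, 69.8 and 65.7 FPKM, with the higher values in the WT libraries and the lowest in AdNTF3-Tg.

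*Chrna7* came next and varied most, at 28.9 FPKM in WT_1, 29.1 in the library labelled TRKC+/-, 24.7 in WT_2 and 31.5 in AdNTF3-Tg. WT_2 was low and AdNTF3-Tg high, while WT_1 and the library labelled TRKC+/- were nearly equal, so the WT range reached almost to the mutant values. *Chrnb2* was at 16.5, 18.2, 16.4 and 17.8 FPKM in the same order, with both mutant libraries above both WT libraries. *Chrna5* was at 14.3, 14.4, 13.8 and 15.7 FPKM, highest in AdNTF3-Tg and lowest in WT_2. Its 326 to 370 reads are uncertain where its model overlaps that of *Chrna3*, which had far more reads, since strand use in counting is not known. *Chrna4* had 2 reads in WT_1 and 1 in the library labelled TRKC+/- and was not listed in the other two, at most 0.050 FPKM. It was at or under the floor everywhere, and no fold change is given for it.

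The order of levels per length, *Chrna3* over *Chrnb4* over *Chrna7* over *Chrnb2* over *Chrna5*, held in 4 of 4 libraries, and no ranges of neighbouring genes overlapped. The 2 lowest were closest. *Chrna5* stood at 0.866 (0.759 to 0.986) times the *Chrnb2* level in WT_1, 0.790 (0.695 to 0.896) in the library labelled TRKC+/-, 0.839 (0.735 to 0.956) in WT_2 and 0.885 (0.781 to 1.002) in AdNTF3-Tg, with 95% counting intervals in parentheses. The interval reached 1 in the AdNTF3-Tg library, where counting error alone does not separate the pair. These levels depend on the gene lengths used for FPKM, which were 3123 bases for *Chrna3*, 3486 for *Chrnb4*, 2091 for *Chrna7*, 5405 for *Chrnb2* and 2738 for *Chrna5*. By reads alone, *Chrnb2* had more than *Chrna7* in every library, 769 to 867 against 443 to 562.

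**Figure D1:**
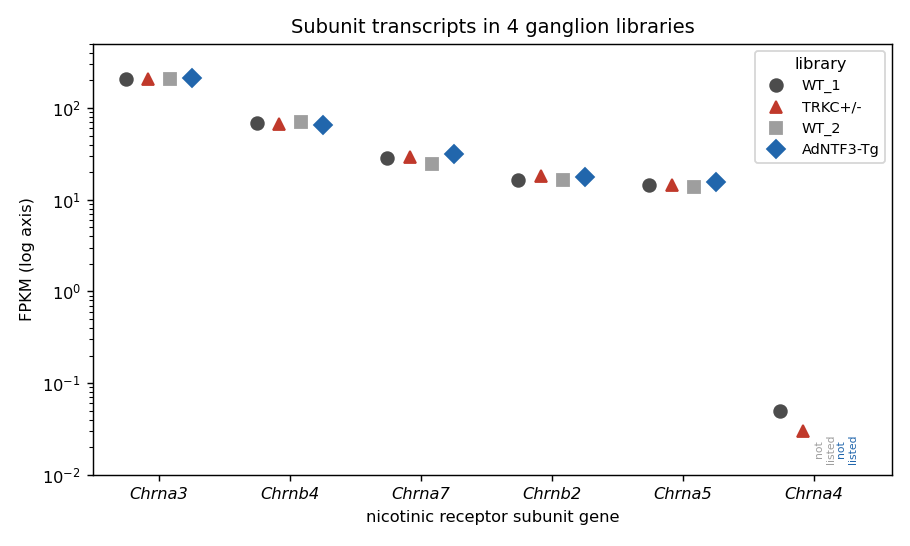
FPKM on a log axis of the 6 subunit genes, 1 point for each of the 4 libraries, with no error bar since each library is 1 pool. Points of a gene nearly coincide while genes differ widely, from 205 to 214 for *Chrna3* down to 13.8 to 15.7 for *Chrna5*, and *Chrna4* is listed in only 2 libraries, at 0.050 and 0.030.

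The comparison of each mutant with WT addresses whether the receptor transcripts of the ganglion differed in the library labelled TRKC+/- or in that of the NT-3 transgene. None did by the cutoff of the study, an absolute log2 ratio of at least 0.5. With 1 library for each mutant this cutoff is a size, not a test. In the library labelled TRKC+/-, 0 of the 5 members listed in all libraries passed it, beside 8.62% of all 15275 genes. In AdNTF3-Tg 0 of 5 passed it, beside 10.9% of all genes, and between the 2 mutants 0 of 5, beside 13.1%. Between WT_1 and WT_2 0 of 5 passed, beside 13.4%. Where 0.5 had to be reached in the same direction against each WT library, a rule added after seeing the data, 0 of 5 passed in either mutant, beside 4.27% and 5.7% of all genes. The shares of the study's cutoff came mostly from genes of low level: of the 6798 genes averaging 10 FPKM or more, as these 5 do, only 0.456%, 0.824%, 1.35% and 1.5% passed in the 4 comparisons. The absence of a member past the cutoff is therefore near the background for genes at such levels. By median, the log2 ratio of the members to WT was 0.03 in the library labelled TRKC+/- and 0.11 in AdNTF3-Tg, where the medians of all genes were 0.0049 and 0.0017.

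For the α3 subunit the log2 ratio to the WT mean was -0.02 (95% counting interval -0.07 to 0.03) in the library labelled TRKC+/- and 0.04 (-0.01 to 0.08) in AdNTF3-Tg. AdNTF3-Tg exceeded the library labelled TRKC+/- by 0.06 (0.01 to 0.11). The interval excluded 0, but covers counting error only, so it does not bound a difference between the genotypes. The β4 subunit showed log2 ratios of -0.06 (-0.14 to 0.02) and -0.08 (-0.16 to -0.0041) against WT. Against WT_1 alone the AdNTF3-Tg value was -0.07 (-0.16 to 0.02), and against WT_2 alone -0.09 (-0.18 to 0.0015), so neither single comparison excluded 0.

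The α7 subunit had the largest member difference. In AdNTF3-Tg *Chrna7* was 0.24 (0.07 to 0.38) above the WT mean, 0.35 (0.17 to 0.53) above WT_2 and 0.13 (-0.06 to 0.29) above WT_1. The 2 WT libraries differed from each other by 0.22 (0.05 to 0.43), about as far as AdNTF3-Tg lay from their mean, so the difference did not stand clear of the spread between WT libraries. In the library labelled TRKC+/- *Chrna7* was 0.12 (-0.04 to 0.27) above the WT mean, 0.24 (0.06 to 0.43) above WT_2 and 0.01 (-0.17 to 0.18) above WT_1.

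The β2 subunit differed otherwise. Here the WT libraries were within 0.01 of each other (-0.13 to 0.16), and *Chrnb2* was 0.14 (0.02 to 0.26) above their mean in the library labelled TRKC+/- and 0.11 (-0.02 to 0.23) in AdNTF3-Tg. The library labelled TRKC+/- was 10.1% above WT_1 and 10.8% above WT_2, on 867 reads against 769 and 777. The mutants differed from each other by -0.04 (-0.18 to 0.10), AdNTF3-Tg being the lower. The accessory α5 subunit was 0.03 (-0.16 to 0.22) above WT in the library labelled TRKC+/- and 0.16 (-0.03 to 0.34) in AdNTF3-Tg. Both intervals include 0, and with 326 to 370 *Chrna5* reads per library no difference was detectable.

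The intervals excluded 0 for 1 of 5 members in the library labelled TRKC+/- (*Chrnb2*), where 16.2% of all genes did so, and for 2 of 5 in AdNTF3-Tg (*Chrna7* higher and *Chrnb4* lower), where 24.8% did. Between the mutants it was 1 of 5 (*Chrna3*) beside 22.3%, and between the WT libraries 1 of 5 (*Chrna7*) beside 20.5%. A quasi-likelihood fit in edgeR over all 4 libraries, which has 1 residual degree of freedom and assumes that a lone mutant pool varies like the WT pools, gave every tested member an adjusted p of 0.999 for the library labelled TRKC+/-, of 0.818 (*Chrna7*) to 0.907 (*Chrna3*) for AdNTF3-Tg and of 0.951 to 0.986 between the mutants. It called 1 of 14156 genes (0.00706%) in the library labelled TRKC+/-, *Ucp1*, with an adjusted p of 0.00205. Without the filter on reads it called 0 there (230 at an unadjusted p under 0.05), limma called 0 (410) and DESeq2 called 2. With the filter, edgeR called 0 (0%) in AdNTF3-Tg, where 832 had an unadjusted p under 0.05 and DESeq2 and limma also called 0, and 1 (0.00706%), again *Ucp1*, between the mutants, which was likewise lost without the filter and in limma. *Chrna4* was not tested, having too few reads.

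**Figure D2:**
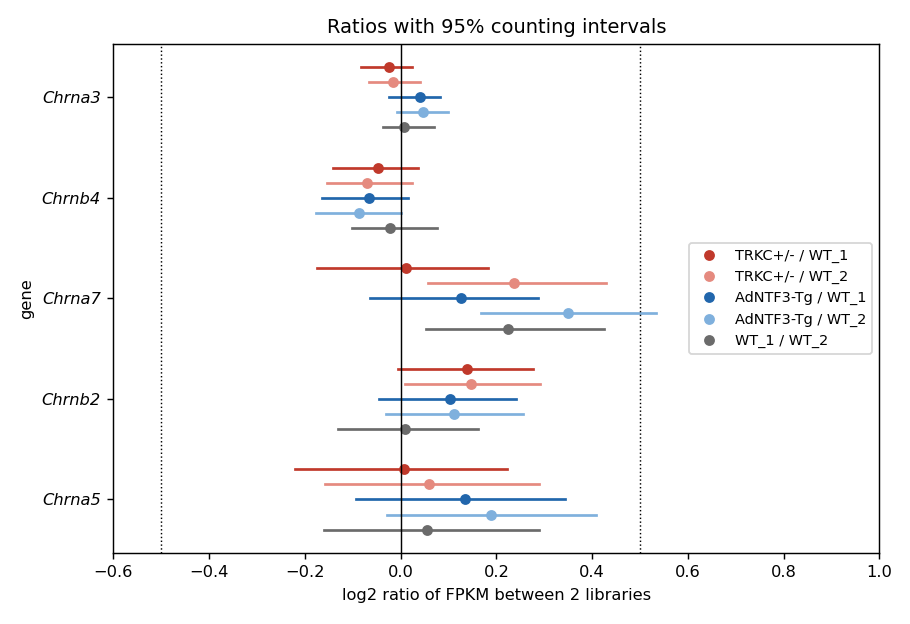
Log2 ratio of FPKM between 2 libraries (x axis) for the 5 subunit genes listed in all libraries, each point with its exact 95% counting interval as a line, and dotted lines at -0.5 and 0.5. *Chrna3* and *Chrnb4* sit close to 0 in every pair, and *Chrna7* is spread from 0.01 to 0.35, with WT_1 over WT_2 at 0.22.

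The range of each transcript over all 4 libraries, whatever their genotype, gives a measure of steadiness. It was 0.06 on the log2 scale for *Chrna3*, 0.09 for *Chrnb4*, 0.15 for *Chrnb2*, 0.19 for *Chrna5* and 0.35 for *Chrna7*. The median was 0.31 over all 15275 genes and 0.20 over the 6798 genes averaging 10 FPKM or more. Among the latter, 4.21% had a smaller range than *Chrna3*, 9.71% a smaller one than *Chrnb4*, 30.5% than *Chrnb2*, 45.3% than *Chrna5* and 84.2% than *Chrna7*. The main pair of the ganglionic receptor thus had a smaller range than most of these 6798 genes, and the α7 transcript a larger one, without matching for level. More reads narrow the range, and *Chrna3* had 5563 to 5768 reads per library against 443 to 562 of *Chrna7*. *Chrna3*, *Chrna5* and *Chrna7* had their highest value in AdNTF3-Tg, as did 26.9% of all genes. *Chrnb2* was highest in the library labelled TRKC+/-, as were 23.4% of all genes, and *Chrnb4* in WT_2, as were 23.4%. None was highest in WT_1, as 26.4% of all genes were.

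**Figure D3:**
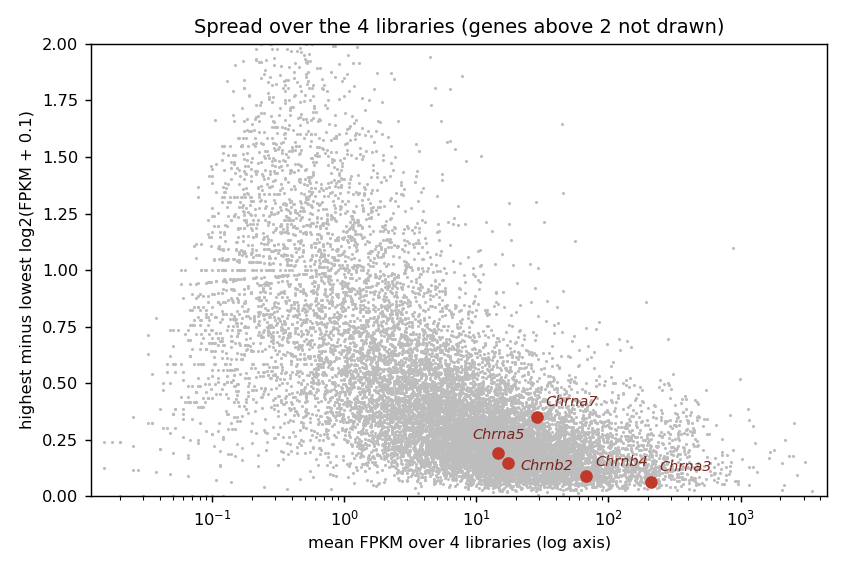
Range of log2(FPKM + 0.1) over the 4 libraries (y axis) against mean FPKM (log x axis) for the 15275 genes listed in all libraries (grey) and the 5 subunit genes (red); 143 genes with a range above 2 are not drawn. The range falls with the level, and *Chrna3* (0.06) and *Chrnb4* (0.09) lie low in the plot, *Chrna7* (0.35) higher.

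As shares of the summed subunit transcripts, which came to 337, 333, 332 and 345 FPKM in WT_1, the library labelled TRKC+/-, WT_2 and AdNTF3-Tg, the composition was nearly constant. *Chrna3* made up 61.5% to 62.4% and *Chrnb4* 19.1% to 21.0%. *Chrna7* made up 7.44% to 9.14%, *Chrnb2* 4.91% to 5.46% and *Chrna5* 4.15% to 4.56%. In reads, which favour long genes, *Chrnb2* took a larger share (8.69% in the mean) than *Chrna7* (5.46%). These shares are of transcripts, and say nothing of protein or of receptors at the membrane.

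The ratio of the partner subunits, *Chrnb4* per *Chrna3*, was 0.330 (0.313 to 0.347) in WT_1, 0.325 (0.308 to 0.341) in the library labelled TRKC+/-, 0.337 (0.320 to 0.354) in WT_2 and 0.307 (0.291 to 0.323) in AdNTF3-Tg. AdNTF3-Tg was the lowest, and its interval overlapped those of all libraries. The ratio of the β subunits had its higher values in the mutant libraries. *Chrnb2* per *Chrnb4* was 0.240 (0.221 to 0.261) and 0.235 (0.217 to 0.256) in the WT libraries, against 0.274 (0.252 to 0.296) in the library labelled TRKC+/- and 0.270 (0.249 to 0.293) in AdNTF3-Tg. Both mutant values lay above both WT values, with overlapping intervals. The share of all genes with this order was not counted, and the order was not tested. *Chrna5* per *Chrna3* was 0.0687, 0.0701, 0.0664 and 0.0734 in the order of the shares above, and *Chrna7* per *Chrna3* was 0.139, 0.142, 0.119 and 0.147, with WT_2 the lowest in both ratios.

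**Figure D4:**
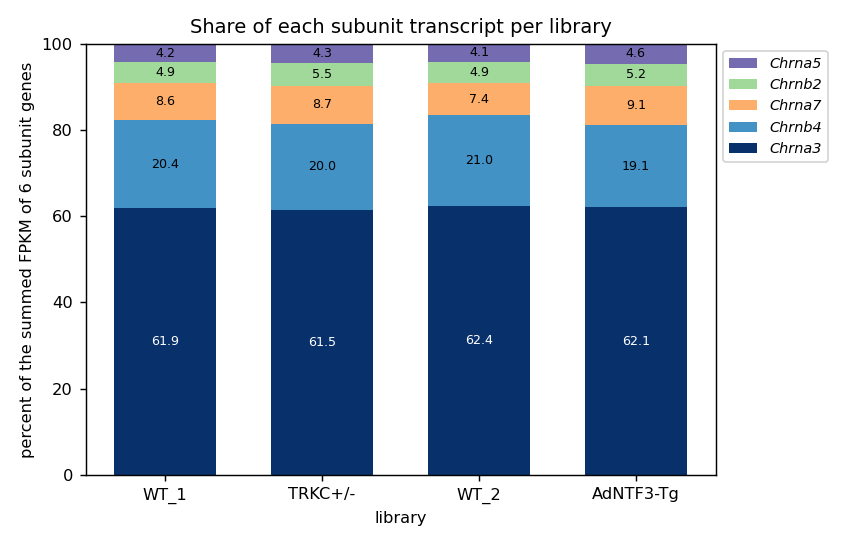
Share of each subunit gene, in percent, of the summed FPKM of the 6 genes in each library (stacked bars from 0 to 100, no replicates; *Chrna4* is too small to draw). *Chrna3* takes 61.5% to 62.4% and *Chrnb4* 19.1% to 21.0% in every library, and the *Chrna7* band is narrowest in WT_2 at 7.44%.

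The other 10 nicotinic subunit genes of the mouse were at or near the floor, apart from 2 of the muscle receptor. *Chrna2*, *Chrna6*, *Chrna9* and *Chrna10* had at most 2 reads in any library, under the floor, and *Chrnb3*, *Chrnd*, *Chrne* and *Chrng* were listed in none. *Chrna1*, the α subunit of the muscle endplate, had 136.5 reads in WT_1, 89.5 in the library labelled TRKC+/-, 79.9 in WT_2 and 53.7 in AdNTF3-Tg, at 3.68, 2.36, 2.12 and 1.43 FPKM. WT_1 was highest and AdNTF3-Tg lowest. It was the one subunit gene past the cutoff, which 10.9% of all genes passed in AdNTF3-Tg, with a log2 ratio of -0.92 (-1.47 to -0.57) there, and the WT libraries differed by 0.77 (0.39 to 1.21). Its adjusted p in edgeR was 0.817. Of the skeletal muscle markers given above, WT_1 also had the most, but WT_2, with the fewest, did not have the least *Chrna1*. In WT_2, 4 of the 10 markers were under the floor of 3 reads (*Tnni2*, *Atp2a1*, *Myoz1* and *Tnnc2*), and the part of the markers in the *Chrna1* difference was not tested. *Chrnb1*, the muscle β subunit, was at 0.77, 0.86, 0.54 and 0.60 FPKM in the order WT_1, library labelled TRKC+/-, WT_2, AdNTF3-Tg, from 10 to 16 reads.

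The genes next to the cluster stood at unequal levels as well. *Psma4*, a proteasome subunit gene at chr9:54798597-54805837, was at 101.7, 94.97, 103.4 and 95.7 FPKM. *Hykk*, a hydroxylysine kinase gene between *Psma4* and *Ireb2*, was at 0.76 to 1.04 FPKM. *Ireb2*, which encodes an iron-responsive RNA-binding protein, was at 10.1, 11.2, 13.6 and 14.9 FPKM, low in WT_1 and the library labelled TRKC+/- and high in WT_2 and AdNTF3-Tg. It was 0.34 (0.19 to 0.46) above WT in AdNTF3-Tg, while WT_1 was 0.43 below WT_2 (-0.59 to -0.26). *Adamts7*, a metalloproteinase gene linked to the cluster in human studies, is on mouse chromosome 9 but far from it, at chr9:90057816-90102909, and stood at 1.28 to 1.88 FPKM. Of the 4, 0 passed the cutoff in either mutant, beside 8.62% of all genes in the library labelled TRKC+/- and 10.9% in AdNTF3-Tg.

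Receptor assembly and surface number depend on chaperones and on prototoxins of the Ly6 family. *Tmem35a*, which encodes the α7 chaperone NACHO, was at 65.3, 59.4, 57.1 and 57.1 FPKM, and *Ric3*, a second assembly factor, at 17.1, 17.1, 18.3 and 19.9, highest in AdNTF3-Tg (0.17, 0.02 to 0.26). *Ubxn2a*, whose product acts on the stability of α3 receptors, was at 12.4, 12.1, 13.7 and 15.6 FPKM and likewise highest in AdNTF3-Tg (0.25, 0.05 to 0.44). *Lynx1*, a prototoxin that restrains nicotinic receptors, was at 59.1, 60.7, 59.2 and 65.4 FPKM (0.15, 0.07 to 0.22 in AdNTF3-Tg). *Ly6e* went the other way, at 45.0 and 40.8 in the WT libraries, 48.9 in the library labelled TRKC+/- and 33.0 in AdNTF3-Tg.

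The *Ly6e* value of AdNTF3-Tg was below all others, at a log2 ratio of -0.38 (-0.56 to -0.28) to WT and of -0.57 (-0.74 to -0.43) to the library labelled TRKC+/-. Only the latter passed the cutoff, and edgeR gave adjusted p values of 0.817 and 0.940. *Ly6e* is also known as an interferon-induced gene. *Lypd6* passed the cutoff in the library labelled TRKC+/-, at 0.55, but on 12 to 22 reads per library and with an interval from -0.25 to 1.49. *Lypd6b* had 3 to 7 reads, and *Lypd1* and *Ly6h* had at most 2. Of the 9 genes of this kind, 7 were listed in all libraries, and 1 passed the cutoff in the library labelled TRKC+/- and 0 in AdNTF3-Tg, beside 8.62% and 10.9% of all genes.

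Of 16 scaffold and synapse-organising genes, 0 passed the cutoff in the library labelled TRKC+/- and 1 in AdNTF3-Tg, beside 8.62% and 10.9% of all genes. That one was *Musk*, a kinase of the muscle endplate, with 5 to 9 reads per library (0.58, -0.75 to 2.11). The most abundant was *Ywhae*, a 14-3-3 protein gene, at 280.0, 307.4, 298.5 and 299.5 FPKM. *Dlg4* and *Dlg2*, which encode the postsynaptic scaffolds PSD-95 and PSD-93, were the next. *Dlg2* was at 41.2, 40.6, 41.1 and 46.9 FPKM and *Dlg4* at 47.3, 49.9, 47.1 and 53.8, both highest in AdNTF3-Tg at 0.19 above WT (0.11 to 0.25 and 0.09 to 0.27). The 2 WT libraries differed by 0.01 or less for both genes. The adjusted p for *Dlg2* was 0.817.

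**Figure D5:**
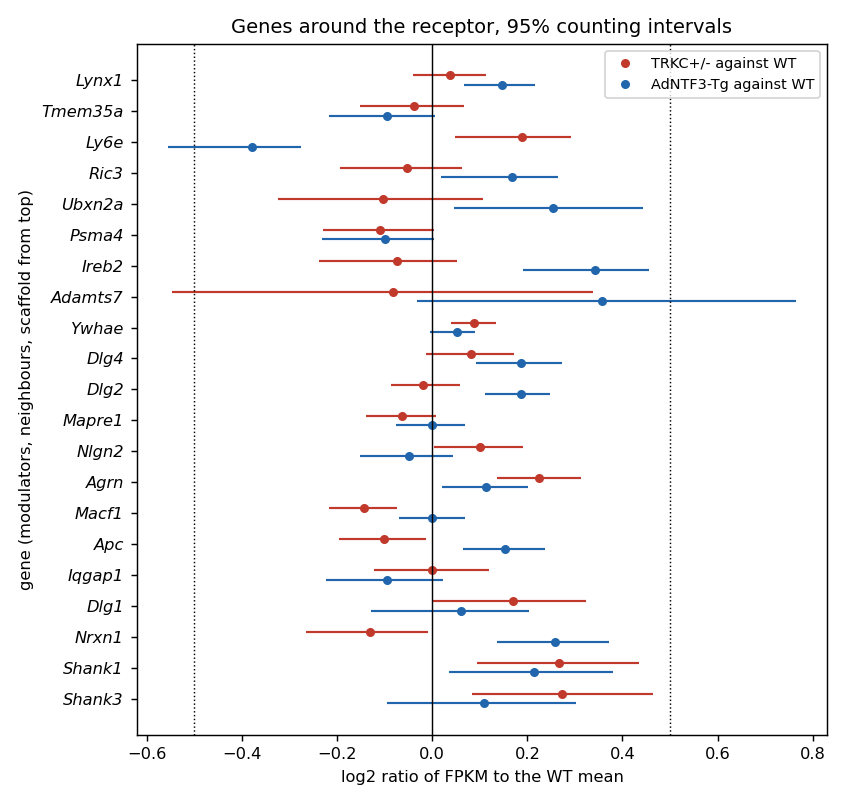
Log2 ratio of FPKM to the mean of both WT libraries (x axis) for modulator, neighbour and scaffold genes averaging 1 FPKM or more, in the library labelled TRKC+/- (red) and in AdNTF3-Tg (blue). Lines are 95% counting intervals and dotted lines mark -0.5 and 0.5; all points lie between them, *Ly6e* at -0.38 in AdNTF3-Tg being the lowest.

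Among genes of factors known to act on the cluster promoters, 1 passed the cutoff in the library labelled TRKC+/-, where 8.62% of all genes did. It was *Pou3f1*, 1.22 (0.02 to 2.82) above WT on 1 to 12 reads, and the WT libraries differed more, by 1.55, at 8 reads in WT_1 and 1 in WT_2. *Hnrnpk*, whose product binds the *Chrnb4* promoter region, was at 153 to 158 FPKM, *Phox2a*, a homeodomain factor of the sympathetic lineage, at 142 to 168, and *Sox10* at 36.8 to 50.3. *Sox10* was 0.35 (0.24 to 0.45) above WT in the library labelled TRKC+/-. It is a glial gene in adult ganglia, and the glial marker sum was 778 FPKM there against 810 and 620 in the WT libraries. In such bulk samples, a change in the number of cells of a type and a change in RNA per cell cannot be told apart.

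On the acetylcholine side, *Ache*, which encodes the enzyme that ends the nicotinic signal, was at 238, 255, 236 and 244 FPKM, near the level of *Chrna3*. The muscarinic receptor genes *Chrm2* and *Chrm1*, whose receptors give slow responses in the ganglion, were at 21.5 to 23.9 and 16.8 to 17.4 FPKM. Of the 10 genes of this list, 8 were listed in all libraries, and 2 passed the cutoff in each mutant, beside 8.62% of all genes in the library labelled TRKC+/- and 10.9% in AdNTF3-Tg. In the library labelled TRKC+/- these were *Chat*, which encodes choline acetyltransferase (0.59, -0.26 to 1.43, on 10 to 23 reads), and *Chrm4* (-0.60, -1.16 to -0.12), which was also low in AdNTF3-Tg (-0.49). In AdNTF3-Tg they were *Bche*, encoding butyrylcholinesterase, and *Slc5a7*, encoding the choline transporter. *Bche* was at 2.0, 2.23, 2.17 and 3.56 FPKM (0.75, 0.49 to 1.05), so that AdNTF3-Tg stood above 3 similar values. *Slc5a7* was at 1.56, 2.05, 2.66 and 3.18 FPKM (0.62, 0.26 to 0.90), but WT_1 was 0.73 below WT_2.

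*Chrna3* has a nearly flat pattern, and many genes resembled it. Over the 4 libraries, the 3 of 9222 genes of at least 5 FPKM whose centred log2 values differed least from those of *Chrna3* were *Sf3b1* (root mean square difference 0.0019), *Aldh1l1* (0.0050) and *Rab15* (0.0062). *Rab15* was at 126.6, 124.8, 125.8 and 128.9 FPKM. In all, 1582 genes came within 0.05 of *Chrna3*, so the likeness does not single out a small group.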

How the data were processed

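T1-T4 SG RNA was enriched for mRNA with oligo(dT) and sequenced as single-end reads by the authors, who filtered reads with SOAPnuke and mapped them with HISAT2. The methods of the study name the build mm9 and the submitters' processing notes name mm10 and RSEM; the sources disagree, and strand use in counting is not given in the sources used here. The authors deposited, per Entrez gene, an expected count (reads on the gene, not normalized, need not be whole) and an FPKM value (that count scaled to gene length and library reads). Between 92.6% and 93.7% of expected counts were whole (exactly, with no tolerance), and all were rounded for intervals and tests. Depth was 8665955 to 8894985 reads on genes.

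Symbols came from a RefSeq table (GRCm38.p6) that matched 17619 identifiers (99.7%), positions from GENCODE on NCBIM37, and promoter windows from RefSeq, where all 6 members were found. The gene models of *Chrna5* and *Chrna3* overlap at their ends in the RefSeq table, so reads there are uncertain between them. Only genes with reads are listed in a library.

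Log2 ratios are of FPKM + 0.1, for 15275 genes that all 4 libraries list, called at an absolute value of at least 0.5. Counting intervals are exact Clopper-Pearson 95% intervals of the share of reads, covering counting error only, since PCR reads are not independent molecules; they come from reads and need not be centred on the FPKM ratio. The edgeR test (4.0.16, R 4.3.3; TMM, filterByExpr, quasi-likelihood, Benjamini-Hochberg threshold 0.05) used 3 groups and all 4 libraries. DESeq2 (1.42.0) and limma (3.58.1) were alternatives. The labels do not say how the 2 WT pools differ, so p-values measure only the spread between these 2 samples. Methods were tested on simulated data.

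All 6 members, the other subunit genes, cluster neighbours and modulators are named; of the scaffold, transcription factor and cholinergic lists, genes called in either mutant and the 3 of highest mean FPKM; of marker lists, those needed. One gene of the transcription factor list is not reported here. Members and lists were chosen with earlier results of these data known.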

Additional observations from a re-analysis of the deposited data

How the results depend on the processing

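Members past the cutoff numbered 0 of 5 under every setting tried. All 80 member log2 ratios recomputed under settings that could change them kept their sign and stayed inside the counting interval first given. Pseudocount, centring and TMM could move members at these levels only slightly, so most of the 80 say little. Leaving out a WT library could move them more. *Chrna7* in AdNTF3-Tg was at 0.13 without WT_2 and at 0.35, the largest absolute value, without WT_1. The filter on low values and the treatment of unlisted genes cannot change a member listed everywhere. Counts over all genes moved. For the library labelled TRKC+/- against WT the 1316 genes past 0.5 became 271 with a pseudocount of 1, 445 over genes averaging 1 FPKM or more, 2613 with unlisted genes set to 0, and 653 where 0.5 had to be reached against each WT library, a rule chosen after seeing the data. For AdNTF3-Tg the 1669 became 395, 681, 2996 and 871, and between the mutants the 2003 became 590, 923 and 3273 under the first 3. Leaving out 1 WT library gave 1632 to 1933 genes for the library labelled TRKC+/- and 2033 to 2116 for AdNTF3-Tg; edgeR then has no residual degrees of freedom, so no test was made. In edgeR, the library labelled TRKC+/- had 1 gene called, 2 with RLE size factors, 0 without the read filter, 5 with the 2 groups alone, 2 in DESeq2 and 0 in limma; between the mutants the 1 became 0 without the filter and in limma. The cause was not tested. *Chrna3* made up 62.0% of subunit FPKM and 60.3% of subunit reads, which are not scaled to length. No paired analysis was possible because each mutant has 1 library and the labels do not say which WT library is its control. With 1 pool per mutant and 326 to 867 reads for *Chrna5*, *Chrna7* and *Chrnb2*, differences of the size seen between the WT pools cannot be told from differences between groups.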

Other observations

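Markers of other cells were also summed beside the subunit genes. The sensory neuron list came to 199 to 216 FPKM, mostly from *Avil* (195 to 207 FPKM), while *Trpv1*, *Prdm12* and *Mrgprd* were at most 0.46 FPKM, *Scn10a* at most 0.70 and *P2rx3* at most 1.07. Of its 6 genes listed in all libraries, 4 were past the cutoff upward in AdNTF3-Tg (*Calca*, *Scn10a*, *Trpv1* and *Prdm12*), beside 10.9% of all genes called in either direction. The counting intervals included 0 for *Scn10a* (0.50, -0.06 to 1.204), *Trpv1* (0.80, -0.43 to 2.41) and *Prdm12* (0.65, -0.64 to 2.29). In the library labelled TRKC+/-, 2 of the 6 were past the cutoff, *Trpv1* upward at 0.80 (-0.44 to 2.40) and *Scn10a* downward at -1.01 (-2.54 to -0.41), beside 8.62% of all genes. *Calca*, encoding a peptide of sensory neurons, was at 4.18, 2.75, 3.13 and 6.19 FPKM in WT_1, the library labelled TRKC+/-, WT_2 and AdNTF3-Tg, on 23 to 52 reads, and AdNTF3-Tg was 0.76 (0.20 to 1.32) above WT. Macrophage and lymphocyte markers summed to 26.9 to 30.4 FPKM and endothelial markers to 21.9 to 26.0. Adipocyte markers summed to 366, 200, 332 and 269 FPKM in the same order as *Calca*. That sum includes *Ucp1* and is mostly *Fabp4* (244, 134, 225 and 173 FPKM). *Adipoq* was at 14.0, 9.0, 7.56 and 6.92 FPKM, lowest in AdNTF3-Tg, but WT_1 was 0.88 (0.51 to 1.33) above WT_2. *Plin1* was at 6.17, 5.25, 5.86 and 6.18 FPKM. The chromaffin granule gene *Chga*, also of sympathetic neurons, was at 237 to 244 FPKM. The part of these markers in the member values was not tested.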
